A study of Mus musculus with 18 samples.

Results

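The genes described here are 10 genes of secreted acute-phase proteins in mouse liver: the serum amyloid A genes Saa1, Saa2, Saa3 and Saa4, the orosomucoid genes Orm1 and Orm2, Lcn2, Hp, Crp and Apcs. They were chosen by symbol, with earlier results of these data known, and all 10 were found among the 19057 rows of the liver table. The liver RNA came from male ICR mice sampled at an age of 10 weeks, with 3 mice in each of 6 groups. Con mice had regular diet and saline, and STZ mice had a single injection of streptozotocin, a toxin of the insulin-producing beta cells that makes mice diabetic. A10-FMT and Con-FMT mice had the same injection and then oral transfer of small intestinal content, taken from donors given alginate oligosaccharide (AOS) at 10 mg/kg for A10-FMT and from control donors for Con-FMT. The content of each donor group was pooled, so that mice of a transfer group shared their inoculum. AOS mice had AOS at 10 mg/kg without streptozotocin and STZ+AOS mice had both, and these last groups are known here from the sample labels alone. Whole liver was read, so that fewer cells of a type and less RNA per cell cannot be told apart.

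Acute-phase proteins are plasma proteins whose output by the liver changes within hours of infection or injury. Interleukin 6, acting through its receptor and the transcription factor STAT3, and interleukin 1, acting through NF-kB, raise their transcription in hepatocytes, and C/EBP factors and glucocorticoid hormone add to it. In mice the inducible serum amyloid A proteins, which travel on high-density lipoprotein, show the widest range, while Crp, a main marker in humans, moves little.

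The genes lie in 5 places of the genome (RefSeq, GRCm38.p6, the same assembly as the mm10 build in the submitters' processing notes). Saa3 (chr7:46711998-46719615), Saa4 (chr7:46727992-46732603), Saa1 (chr7:46740497-46743181) and Saa2 (chr7:46751833-46754313) form a cluster on chromosome 7. Orm1 (chr4:63344556-63348163) and Orm2 (chr4:63362449-63365877) are neighbours on chromosome 4, and Crp (chr1:172698056-172699966) and Apcs (chr1:172893961-172895054) lie near each other on chromosome 1. Lcn2 is at chr2:32384637-32387739 and Hp at chr8:109575128-109579172. Saa1 and Saa2 transcripts were 94.4% identical over 606 aligned bases, and 9.11% of the 50-base windows of Saa1 occurred unchanged in Saa2. Orm1 and Orm2 were 91.0% identical over 775 bases with 20.4% of windows shared. The methods of the study give an aligner option for reads with several hits, but how such reads were counted toward a gene is not given in the sources used here, so values within a pair can hold reads of the partner.

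Sequence between 250 and 51 bases before the start site of the RefSeq promoter table is shown for the 3 inducible serum amyloid A genes, which changed most in STZ against Con, and for Orm2, the member called higher in STZ+AOS against AOS. For Saa1 and Saa3 this start site lies inside the gene span given above, which begins further upstream, so that the Saa3 stretch is wholly and the Saa1 stretch partly within that span. Capitals mark a C/EBP-type match (TTGCNNAA, either strand). The Saa1 stretch (chr7:46743031-46743230, minus strand) and the Saa2 stretch (chr7:46751583-46751782, plus strand) were 94.5% identical over 199 aligned bases and carried the same 8 letters. The Saa3 stretch (chr7:46715727-46715926, minus strand) and the Orm2 stretch (chr4:63362199-63362398, plus strand) carried other versions. All stretches are from RefSeq, GRCm38.p6, and run 5′ to 3′ toward the gene.
Saa1: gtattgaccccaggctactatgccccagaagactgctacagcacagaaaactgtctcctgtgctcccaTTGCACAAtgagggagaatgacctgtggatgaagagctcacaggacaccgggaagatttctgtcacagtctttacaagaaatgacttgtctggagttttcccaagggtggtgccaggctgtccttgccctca
Saa2: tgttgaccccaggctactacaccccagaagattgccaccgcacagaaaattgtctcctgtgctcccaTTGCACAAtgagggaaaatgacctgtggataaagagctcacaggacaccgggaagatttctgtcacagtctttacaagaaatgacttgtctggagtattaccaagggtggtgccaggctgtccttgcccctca
Saa3: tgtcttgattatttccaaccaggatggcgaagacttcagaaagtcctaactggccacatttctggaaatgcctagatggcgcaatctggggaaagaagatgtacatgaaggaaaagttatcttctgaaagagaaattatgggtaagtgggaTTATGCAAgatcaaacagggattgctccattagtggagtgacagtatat
Orm2: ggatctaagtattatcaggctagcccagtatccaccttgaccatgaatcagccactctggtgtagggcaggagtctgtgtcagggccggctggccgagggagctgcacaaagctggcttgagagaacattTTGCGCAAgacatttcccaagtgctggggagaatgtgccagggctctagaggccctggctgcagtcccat
The RefSeq promoter table held 8 of the 10 members. In its windows of 300 bases, TTGCNNAA was found in 6 of these 8 promoters and in 10.8% of all 32851, the STAT-type letters TTCNNNGAA in 1 (Apcs) and in 8.3%, and the canonical NF-kB consensus of 10 letters in 0 and in 8.46%. TATAAA on the forward strand was found in Crp and Orm2 and in 8.32% of all promoters. These are matches of letters and not measured binding.

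The deposited values were RPKM, a read number divided by the length of the transcript and by the depth of its library, which can be compared between genes. Their sum was 621121 to 806937 per library, and 9955 to 10409 genes reached 1 RPKM. The steps between the lowest values gave an estimated depth of about 13400000 to 15500000 mapped reads per library, and the lowest member value, Saa3 at 3.14 RPKM, then stood for about 24 reads. Hepatocyte markers summed to 42180 RPKM or more in every library. Of 14 neutrophil markers 8 stayed under 1 RPKM in all 18 libraries, and the adipocyte list held 5 of 8 such genes.

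The members varied widely between mice of the same group (see the plot of the 10 genes by mouse). Con mouse 1 and Con mouse 3 were among the 3 highest of 18 mice for 10 of 10 members, while Con mouse 2 was so for 0. STZ+AOS mouse 1 was among the 3 highest for 8 members and highest in its group for 10. The members together made up 3.15% of the RPKM total in Con mouse 1, 2.08% in Con mouse 3, 3.56% in STZ+AOS mouse 1 and 1.06% in STZ mouse 2, and 0.313% to 0.684% in the other 14 mice. Neutrophil markers other than Lrg1, an acute-phase gene that hepatocytes make too, summed to 25.0 RPKM in STZ+AOS mouse 1, 12.1 in Con mouse 1, 9.81 with Con-FMT mouse 2, 8.63 in Con mouse 3 and 1.89 to 8.1 elsewhere. Whether these low levels had a part in the members' values was not tested.

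**Figure D1:**
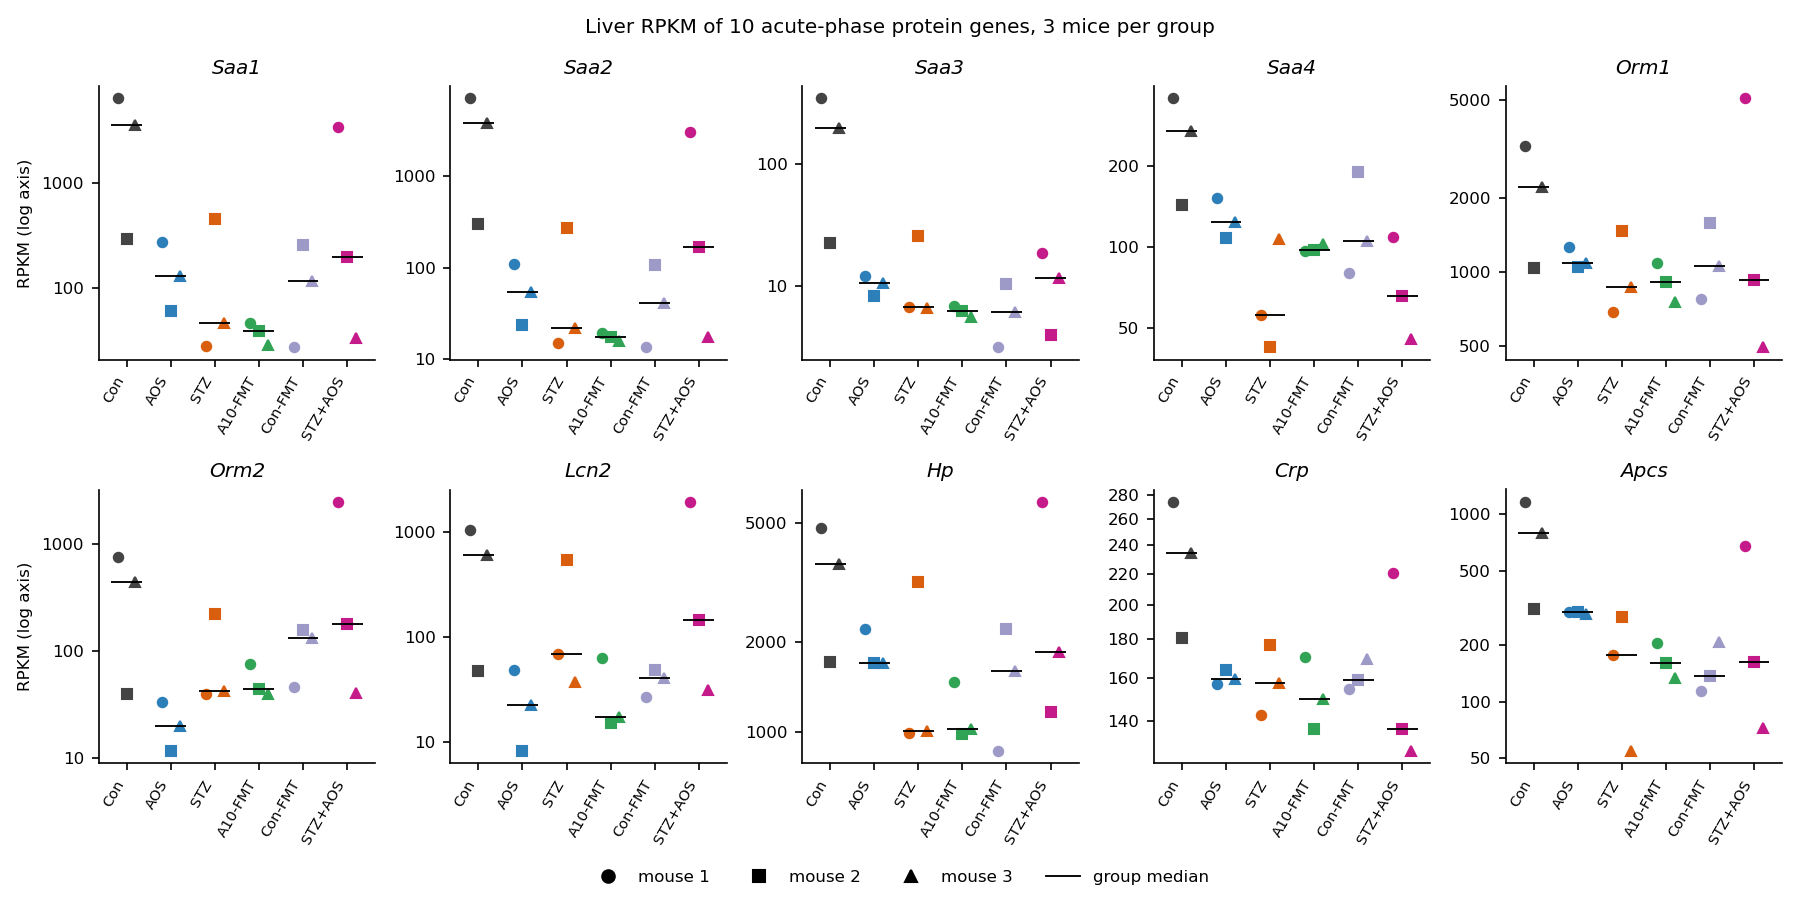
RPKM (log axis) of each of the 10 genes in each of 18 livers, by group, with a marker for each mouse number and a line at the group median. Con mice 1 and 3 and STZ+AOS mouse 1 sit far above most other mice for Saa1 and Saa2, whereas Crp spans only 128 to 274 RPKM.

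Saa1 and Saa2 encode the inducible serum amyloid A proteins of liver. Saa1 was at 6422, 296 and 3570 RPKM in Con mice 1 to 3, at 28.0, 454 and 46.4 in STZ, at 47.2, 39.7 and 29.2 with A10-FMT and at 27.6, 259 and 118 with Con-FMT. It was at 278, 61.1 and 131 RPKM in AOS and at 3430, 200 and 33.6 in STZ+AOS. Con mouse 2 lay below STZ mouse 2, so that Con and STZ overlapped, whereas all 3 A10-FMT mice lay below every Con mouse.

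Saa2 was at 7018, 300.04 and 3826 RPKM in Con and at 14.9, 272 and 21.9 in STZ. It was at 19.3, 17.3 and 15.9 with A10-FMT, at 13.5, 106 and 40.6 with Con-FMT, at 110, 23.7 and 54.0 in AOS and at 3006, 168 and 17.6 in STZ+AOS. The highest value was 520 times the lowest, the widest span of the 10 members. All Con mice lay above all mice of STZ, A10-FMT, Con-FMT and AOS, but Con mouse 2 and STZ mouse 2 were close.

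Saa3, which in mice is made by macrophages and fat as well as by stimulated hepatocytes, was at 344, 22.6 and 195 RPKM in Con. It was at 6.73, 25.7 and 6.62 in STZ, 6.88, 6.24 and 5.60 with A10-FMT, 3.14, 10.3 and 6.06 with Con-FMT and 12.1, 8.19 and 10.5 in AOS. STZ+AOS mouse 1, at 18.8 RPKM, had rank 5 of 18 mice for Saa3 but lay far below Con mice 1 and 3. Mice 2 and 3 of STZ+AOS were at 3.93 and 11.6. Saa4, the constitutive form, was at 355, 143 and 268 RPKM in Con, 55.8, 42.5 and 107 in STZ, 97.0, 97.5 and 103 with A10-FMT, 80.3, 190 and 106 with Con-FMT, 152, 108 and 124 in AOS and 109, 65.9 and 45.8 in STZ+AOS. Every STZ mouse lay below every Con mouse for Saa4, and the mouse that was highest among STZ for the other 9 members, mouse 2, was the lowest of all 18 for Saa4.

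Orm1 encodes alpha-1-acid glycoprotein, which binds basic drugs in plasma. Orm1 was at 3250, 1037 and 2220 RPKM in Con, 688, 1467 and 862 in STZ, 1084, 905 and 751 with A10-FMT, 775, 1571 and 1051 with Con-FMT, 1258, 1049 and 1088 in AOS and 5076, 928 and 492 in STZ+AOS. Its relative Orm2 was at 762, 39.8 and 441 RPKM in Con, 39.8, 223 and 42.0 in STZ, 74.8, 44.2 and 39.2 with A10-FMT and 46.4, 158 and 131 with Con-FMT. Orm2 was lowest in AOS, at 33.1, 11.6 and 19.6 RPKM, and reached 2489, 180 and 40.5 in STZ+AOS. All AOS mice lay below all mice of the other 5 groups for Orm2, whereas Orm1 in AOS was within the range of STZ.

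Lcn2 encodes a lipocalin that binds bacterial siderophores and so withholds iron. It was at 1043, 47.5 and 612 RPKM in Con, 68.8, 548 and 37.4 in STZ, 63.1, 15.3 and 17.6 with A10-FMT, 27.2, 48.7 and 41.2 with Con-FMT, 48.7, 8.34 and 22.7 in AOS and 1949, 147 and 31.9 in STZ+AOS. Hp encodes haptoglobin, which binds free haemoglobin, and was abundant in all mice, at 4812, 1711 and 3654 RPKM in Con, 994, 3169 and 1011 in STZ, 1467, 983 and 1026 with A10-FMT, 866, 2215 and 1599 with Con-FMT, 2207, 1700 and 1704 in AOS and 5891, 1164 and 1850 in STZ+AOS. For both genes Con and STZ overlapped, and the highest values were those of Con mice 1 and 3, STZ mouse 2 and STZ+AOS mouse 1.

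Crp and Apcs encode the short pentraxins, C-reactive protein and serum amyloid P, and Apcs is the pentraxin that responds in mice. Crp had the narrowest span, at 274, 181 and 235 RPKM in Con, 143, 177 and 157 in STZ, 171, 137 and 150.08 with A10-FMT, 155, 159 and 169 with Con-FMT, 157, 164 and 159 in AOS and 220.47, 137 and 128 in STZ+AOS. Apcs was at 1160.17, 313 and 788 RPKM in Con, 178, 283 and 54.9 in STZ, 207, 160.08 and 133 with A10-FMT, 114, 138 and 208 with Con-FMT, 300.49, 299 and 295 in AOS and 676, 162 and 72.8 in STZ+AOS. All 3 Con mice were above all 3 STZ mice for both genes, by a narrow margin for Con mouse 2.

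**Figure D2:**
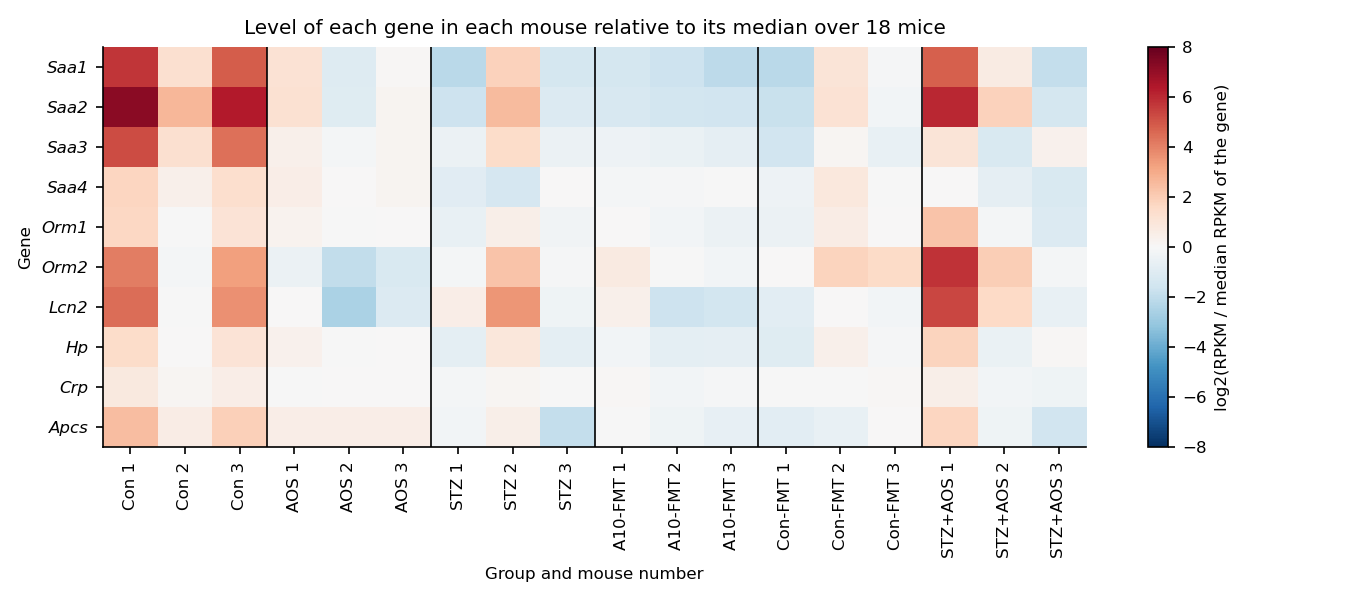
log2 of the RPKM of each gene (rows) in each mouse (columns, by group) over the gene's median across 18 mice, from blue (low) to red (high). Con mice 1 and 3 are above the median in all 10 rows, but so little for Crp that the colour is faint. STZ+AOS mouse 1 is red for Orm2, Lcn2, Saa1 and Saa2 but close to the median for Saa4. The AOS mice are below the median for Orm2, mouse 1 only faintly.

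STZ against Con asks about streptozotocin alone. The serum amyloid A genes and both pentraxins were lower in STZ, with the largest estimates for Saa2 and Saa1, while the orosomucoid genes, Lcn2 and Hp did not pass the test. Values are differences of group means on the log2(RPKM + 1) scale ± SE from limma, adjusted p-values follow Benjamini-Hochberg across the tested genes, and "called" means an adjusted p under 0.05. Among the members 6 of 10 were called, all lower, beside 38.5% of the 10602 tested genes. All 10 estimates were below 0, with a median of -1.80 against 0.21 for all genes. Of all called genes 85.7% were higher in STZ (51.4% when each library was rescaled by its median ratio to the others).

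Saa2 changed by -5.44 ± 1.23 (adjusted p = 0.00655), Saa1 by -4.47 ± 1.23 (adjusted p = 0.0158) and Saa3 by -3.33 ± 0.83 (adjusted p = 0.00995). The constitutive Saa4 changed by -1.90 ± 0.40 (adjusted p = 0.00454). Among the pentraxins Apcs changed by -2.22 ± 0.57 (adjusted p = 0.0115) and Crp by -0.51 ± 0.15 (adjusted p = 0.0226). The 4 others were at -1.03 ± 0.41 for Orm1 (adjusted p = 0.0673, 0.0476 after rescaling), -1.08 ± 0.51 for Hp (0.113), -1.71 ± 0.98 for Orm2 (0.184) and -1.47 ± 1.14 for Lcn2 (0.323).

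The number of called members depended on single mice. It was 3 without Con mouse 1, when Saa2, Saa3 and Saa4 were called and Saa1 was at -3.59 (adjusted p = 0.0692). It was 4 without Con mouse 3 and 10 without Con mouse 2, and 4, 8 and 6 without STZ mice 1 to 3, with all called members lower in STZ each time. Set beside Con mouse 2 alone, the STZ mice were mixed. Among other members, STZ mouse 2 was above it for Saa1 (454 against 296 RPKM), Lcn2 (548 against 47.5) and Hp (3169 against 1711), and STZ mice 1 and 3 were below it for Saa1, Saa2 and Saa3.

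Mice that had a transfer after streptozotocin were also lower than Con for Saa1, Saa2, Saa3, Apcs and Crp. These comparisons used the same Con mice as STZ against Con. In A10-FMT against Con 18.4% of genes were called (86.6% of them higher, 57.2% after rescaling) and 6 of 10 members were called, all lower in A10-FMT. Saa2 changed by -6.77 ± 1.23 (adjusted p = 0.00637), Saa1 by -5.60 ± 1.23 (0.0130), Saa3 by -4.02 ± 0.83 (0.0108), Apcs by -2.00 ± 0.57 (0.0342), Saa4 by -1.26 ± 0.40 (0.0483) and Crp by -0.57 ± 0.15 (0.0274). Lcn2, at -3.55 ± 1.14, had an adjusted p of 0.0510. In Con-FMT against Con 19.4% of genes were called (90.3% of them higher, 59.5% after rescaling) and 5 members, with Saa2 at -5.64 ± 1.23 (adjusted p = 0.0132), Saa1 at -4.30 ± 1.23 (0.0336), Saa3 at -4.08 ± 0.83 (0.0103), Apcs at -2.15 ± 0.57 (0.0265) and Crp at -0.49 ± 0.15 (0.0448). Saa4, at -1.02 ± 0.40 (0.0896), was called in the comparison of A10-FMT alone, and its difference between the transfer groups, -0.24 ± 0.40 (adjusted p = 0.999), did not pass. After rescaling the calls of Saa4 in A10-FMT (adjusted p = 0.0584) and of Saa1 in Con-FMT (0.0511) were lost. Without Con mouse 2 the counts became 10 and 9. Without Con mouse 1 or Con mouse 3 they became 2 and 1, without A10-FMT mice 2 or 3 the first was 3 or 2, and without Con-FMT mice 1 or 3 the second was 1 or 3.

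The comparisons that ask about the transfer itself gave no called member. In A10-FMT against STZ 0.226% of genes were called and 0 of 10 members, 0 of them at an unadjusted p under 0.05. The estimates nearest to the threshold were Lcn2 at -2.08 ± 1.14 (95% interval -4.58 to 0.42, adjusted p = 0.320) and Saa4 at 0.64 ± 0.40 (-0.24 to 1.51, adjusted p = 0.385). Without STZ mouse 2 they were -0.94 and 0.35. In Con-FMT against STZ, which shares the STZ mice, 0.00943% of genes were called and 0 members, 1 at an unadjusted p under 0.05. This was Saa4 at 0.88 ± 0.40 (0.0040 to 1.75, adjusted p = 0.247), and Lcn2 was at -1.55 ± 1.14 (-4.05 to 0.96, adjusted p = 0.467). Without STZ mouse 2, Lcn2 was at -0.41 and Saa4 at 0.59. Without STZ mouse 3, Saa4 was called as higher in Con-FMT (1.25, adjusted p = 0.0490). In A10-FMT against Con-FMT 0% of genes were called, 303 of 10602 had an unadjusted p under 0.05 and none of the members did, with Saa1 at -1.30 ± 1.23 (-3.99 to 1.39) and Saa2 at -1.12 ± 1.23 (-3.83 to 1.58). The intervals were wide for Saa1, Saa2 and Lcn2, reaching further below 0 than above it, and narrow for Crp, at -0.08 ± 0.15 (-0.42 to 0.25).

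**Figure D3:**
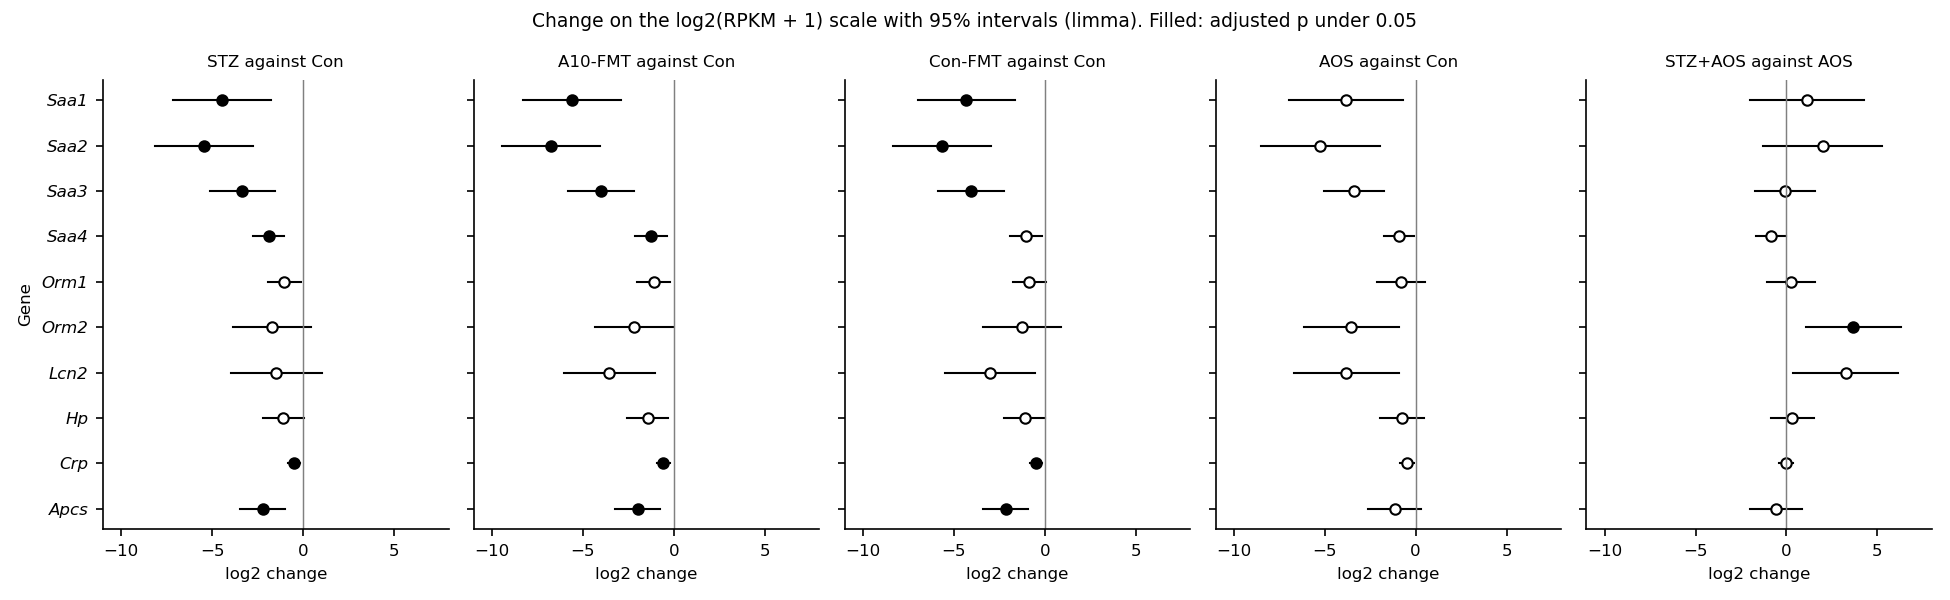
Change of each gene in 5 comparisons on the log2(RPKM + 1) scale (points) with unadjusted 95% intervals (bars) from limma, filled where the adjusted p was under 0.05. The 10 points are left of 0 in the 4 comparisons with Con, and Orm2 at 3.68 is the filled point in STZ+AOS against AOS.

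AOS and STZ+AOS mice gave a second test of streptozotocin, in mice that all had AOS, and shared no mouse with STZ against Con. In this fit of all 18 libraries, 37.9% of 10822 genes were called in STZ+AOS against AOS (83.9% of them higher, 49.6% after rescaling). Here 1 of 10 members was called, and in the other direction: Orm2 was higher by 3.68 ± 1.23 (95% interval 1.05 to 6.30, adjusted p = 0.0290). Lcn2 was at 3.25 ± 1.36 (0.36 to 6.14, adjusted p = 0.0707) and Saa4 at -0.86 ± 0.39 (-1.70 to -0.03, adjusted p = 0.0941). Saa1 at 1.13 ± 1.48 (adjusted p = 0.569) and Saa2 at 1.99 ± 1.55 (0.322) did not pass, and neither did Saa3 at -0.06 ± 0.77, Apcs at -0.57 ± 0.68 and Crp at -0.03 ± 0.18. The Orm2 call was lost after rescaling (3.44, adjusted p = 0.0569), and the count was 0 without AOS mouse 2 or AOS mouse 3. Without STZ+AOS mouse 1 Orm2 was at 2.07 and not called, and Saa4 was called as lower (-1.19, adjusted p = 0.0378). Without STZ+AOS mouse 3 Orm2 and Lcn2 were called.

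AOS against Con asks what AOS did in mice without streptozotocin. Only 0.00924% of genes were called and none of the 10 members, although 7 members had an unadjusted p under 0.05 (781 of all 10822 genes did) and all 10 estimates were below 0, with a median of -2.27 against 0.06 for all genes. Saa2 was at -5.24 ± 1.55 (adjusted p = 0.524), Saa1 at -3.85 ± 1.48 (0.627), Lcn2 at -3.82 ± 1.36 (0.620), Orm2 at -3.53 ± 1.23 (0.605) and Saa3 at -3.39 ± 0.77 (0.322). Without Con mouse 2, Saa3 was called (-4.54, adjusted p = 0.00845). Without Con mouse 1 the estimates were nearer to 0, at -2.97 for Saa1, -2.96 for Lcn2, -2.70 for Orm2 and -2.61 for Saa3 (adjusted p = 1 for each), and without Con mouse 3 they were -3.39, -3.34, -3.09 and -3.02 (0.983 for each). STZ+AOS against STZ had 0% of genes called, with Saa2 at 2.19 ± 1.55 (95% interval -1.10 to 5.48) and Orm2 at 1.86 ± 1.23 (-0.77 to 4.48). Without STZ+AOS mouse 1 these fell to 0.27 for Saa2 and 0.24 for Orm2. The difference between the effect of streptozotocin with AOS and without it was called for 0% of genes. All 10 members had estimates above 0 for it, 5 of them at an unadjusted p under 0.05 (584 of all 10822 genes), with Saa2 at 7.43 ± 2.19, Saa1 at 5.60 ± 2.09, Orm2 at 5.39 ± 1.75 and Lcn2 at 4.72 ± 1.92 (adjusted p = 0.856 for each of these). Leaving out STZ+AOS mouse 1 brought these estimates to 5.51, 3.81, 3.78 and 3.11.

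The members moved together from mouse to mouse, but in unequal steps. On the log2(RPKM + 1) scale and after taking off group means, Saa1 and Saa2 correlated at r = 0.995, Saa1 and Orm2 at 0.982, Orm2 and Lcn2 at 0.966 and Saa1 and Orm1 at 0.946 over 18 libraries. Saa4 followed the others least, at 0.28 with Apcs, 0.424 with Hp and 0.452 with Lcn2. The same 3 high mice enter every one of these values.

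The ratio of 2 members can be read within each mouse. Saa1 over Saa2 was 0.915, 0.987 and 0.933 in the Con mice and above 1 in all 15 other mice, at 1.67 to 2.12 in STZ, 1.84 to 2.44 after transfer from AOS donors (A10-FMT), 2.04 to 2.91 with Con-FMT, 2.43 to 2.58 in AOS and 1.14 to 1.91 in STZ+AOS. Summed Saa1 and Saa2 was 596 RPKM in Con mouse 2, with a ratio of 0.987, and 727 RPKM in STZ mouse 2, with 1.67. The mouse with the highest sum had the lowest ratio of its group in Con, STZ and STZ+AOS (1.14 at 6436 RPKM in the last). In A10-FMT, Con-FMT and AOS it did not. Whether the ratio followed group or level was not tested. The difference of log2 ratios was 0.99 for STZ against Con and 1.41 for AOS against Con, and it was -0.87 for STZ+AOS against AOS (two-sided exact permutation p = 0.1 each, the smallest that 3 against 3 mice allow). Lcn2 over Saa1 was 0.136 to 0.175 in all 6 mice without streptozotocin, and in the 12 mice with it 0.805 to 2.45 in STZ, 0.568 to 0.949 in STZ+AOS, 0.386 to 1.34 with A10-FMT and 0.188 to 0.988 with Con-FMT. The log2 difference was 3.02 for STZ against Con and 2.19 for STZ+AOS against AOS, which share no mouse (exact permutation p = 0.1 each). Orm2 over Orm1 was 0.0111 to 0.0263 in AOS and 0.0824 to 0.490 in STZ+AOS (log2 difference 3.51, exact permutation p = 0.1), but 0.0384 to 0.235 in Con and 0.0487 to 0.152 in STZ (-0.69, exact permutation p = 0.5). These ratios were chosen after the values had been seen, and a share of reads placed on the wrong gene of a pair could shift the Saa1 and Orm ratios, which was not tested.

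**Figure D4:**
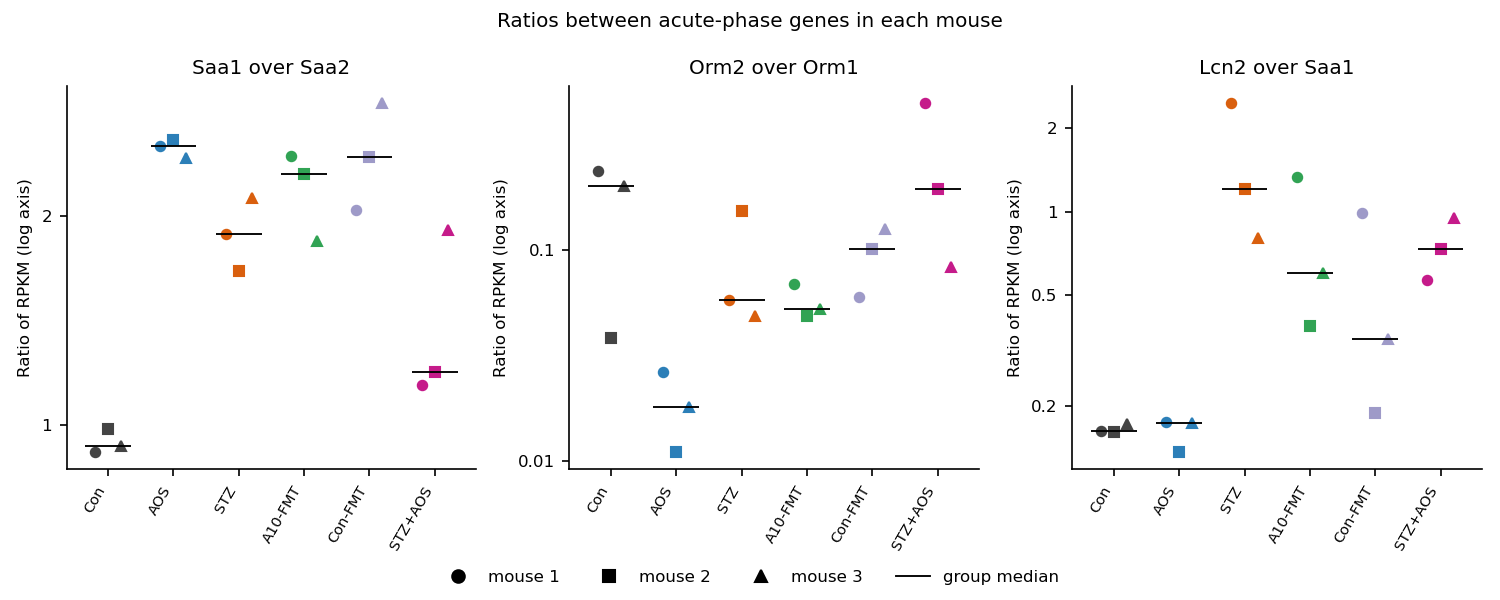
Ratio of RPKM (log axes) of Saa1 over Saa2, Orm2 over Orm1 and Lcn2 over Saa1 in each mouse, by group, with group medians as lines. The 3 Con mice lie between 0.915 and 0.987 for Saa1 over Saa2, below all others, and the 6 Con and AOS mice lie at 0.175 or less for Lcn2 over Saa1, below all others.

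Other hepatic acute-phase genes were called in both directions in STZ against Con. Of all tested genes 33.0% were called higher and 5.52% lower in this comparison, and 31.8% and 6.11% in STZ+AOS against AOS. These shares are the background of the list counts below for these comparisons in the main fit alone. After rescaling, 1480 of 10590 genes were called higher and 1402 lower in STZ against Con. In STZ+AOS against AOS the rescaled counts were 1313 and 1333 of 10769. Of 28 tested genes of a list of further positive acute-phase genes, 6 were called higher and 5 lower in STZ against Con (4 and 7 after rescaling, 3 and 0 without the filter on low values). In the main fit the share called in either direction was close to the 38.5% of all genes. The share called higher was below the 33.0% of all genes, and the share called lower was above the 5.52%. Nnmt, a methyltransferase of nicotinamide, was higher by 3.71 ± 0.86 (adjusted p = 0.00712), at 195, 206 and 156 RPKM in STZ and 42.5, 1.76 and 22.9 in Con, and Fgg, the gamma chain of fibrinogen, changed by -0.95 ± 0.27 (adjusted p = 0.0193). Slc39a14, a zinc and iron importer, was at 0.63 (adjusted p = 0.00260). Without Con mouse 1, Con mouse 3 or STZ mouse 1, 0 of the list were called lower, and without STZ mouse 2 the list had 3 higher and 2 lower. In STZ+AOS against AOS 13 were called higher and 0 lower (10 and 2 after rescaling), led by Nnmt at 7.06 ± 0.79 and the metallothioneins Mt2 at 6.30 ± 0.80 and Mt1 at 6.06 ± 0.83. Without AOS mouse 2 the count called higher was 8. Negative acute-phase genes, whose output falls in inflammation, were called higher for 4 and lower for 3 of 15 in STZ against Con (2 and 5 after rescaling), with Ttr, transthyretin, at -0.92 and Hrg, histidine-rich glycoprotein, at 1.03, and those called higher were 2 without Con mouse 1, 2 or 3 or STZ mouse 1. In STZ+AOS against AOS they were called higher for 3 and lower for 3 (2 and 7 after rescaling).

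Genes of the IL-6 and STAT3 pathway were called mainly as higher with streptozotocin, as called genes in general were, but in a larger share. Of 26 tested, 13 were called higher and 1 lower in STZ against Con (7 and 3 after rescaling), and 12 and 3 in STZ+AOS against AOS (8 and 4). The shares called higher were above the 33.0% and 31.8% of all genes, and after rescaling they were also above those of all genes. In A10-FMT against Con and in Con-FMT against Con, where Saa1 and Saa2 were also called lower, the counts were 5 and 0 each (2 and 0 after rescaling). Of all tested genes 15.9% and 17.5% were called higher in these comparisons, so that the share of the list was close to that of all genes. Il6ra, the receptor chain that binds IL-6, was at 5.21, 4.94 and 5.04 RPKM in Con and 21.6, 26.2 and 12.5 in STZ, a change of 1.74 ± 0.22 (adjusted p = 0.000477), and was higher by 1.27 ± 0.23 in STZ+AOS against AOS (adjusted p = 0.00106). Lepr, the leptin receptor, which signals through STAT3, was at 0.14, 0.14 and 0.17 RPKM in Con and 46.3, 42.1 and 21.7 in STZ, and it was called lower in A10-FMT than in STZ (-3.09, adjusted p = 0.0286). Socs3, a STAT3 target that damps the pathway, was higher by 1.07 in STZ against Con (adjusted p = 0.0222, 0.0573 after rescaling) and by 2.03 in STZ+AOS against AOS (0.00128). Stat3 was at 0.62 (adjusted p = 0.0100, 0.126 after rescaling) and 0.91 (0.000691), Cebpd at 1.10 (0.00220) and 1.29 (0.00272) and Cebpb at 0.82 (0.00368) and 0.98 (0.0138, 0.0629 after rescaling). Il6st, the signalling chain of the receptor, and Nr3c1, the glucocorticoid receptor, were at 0.18 and 0.22 in STZ against Con (adjusted p = 0.217 and 0.0682), and both estimates were below 0 after rescaling, at -0.07 and -0.03. Il6 itself was at 0.14 RPKM or less in every library. Il1r1, a receptor of IL-1, was at 0.68 (adjusted p = 0.150) in STZ against Con and 1.70 (0.0116) in STZ+AOS against AOS.

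Of the IL-1, TNF and NF-kB genes, 7 were called higher and 1 lower among 28 in STZ against Con (3 and 4 after rescaling), a smaller share than the 38.5% of all genes, with the NF-kB inhibitor Nfkbia at 1.40 (adjusted p = 0.000348) and Nfkbiz, a co-regulator of NF-kB targets, at 0.93. Without Con mouse 1 or STZ mouse 2 those called higher were 3 and 4. In STZ+AOS against AOS 10 of 30 were called higher and 1 lower (6 and 3 after rescaling). Glucocorticoid response genes were called higher for 9 of 13 and lower for 0 in STZ against Con (8 and 0 after rescaling) and for 8 and 0 in STZ+AOS against AOS (6 and 0), with Sgk1, a kinase, at 2.01 and 1.94 and the clock gene Per1 at 2.60 and 2.42. The shares of this list called higher were above those of all genes in both comparisons. In A10-FMT against STZ 2 glucocorticoid response genes, Klf9 (-0.82, adjusted p = 0.0269) and Zbtb16 (-1.39, adjusted p = 0.0286), were called lower. Kupffer cell and macrophage markers were called higher for 4 of 13 in STZ against Con (1 after rescaling, 1 without the filter, 1 without Con mouse 2, Con mouse 3 or STZ mouse 2 and 2 without Con mouse 1 or STZ mouse 1), also under 38.5%, led by the scavenger receptor Marco, and their sum ranged from 216 to 451 RPKM in STZ and from 148 to 222 in Con. The part of any of these genes in the members' values was not tested.

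**Figure D5:**
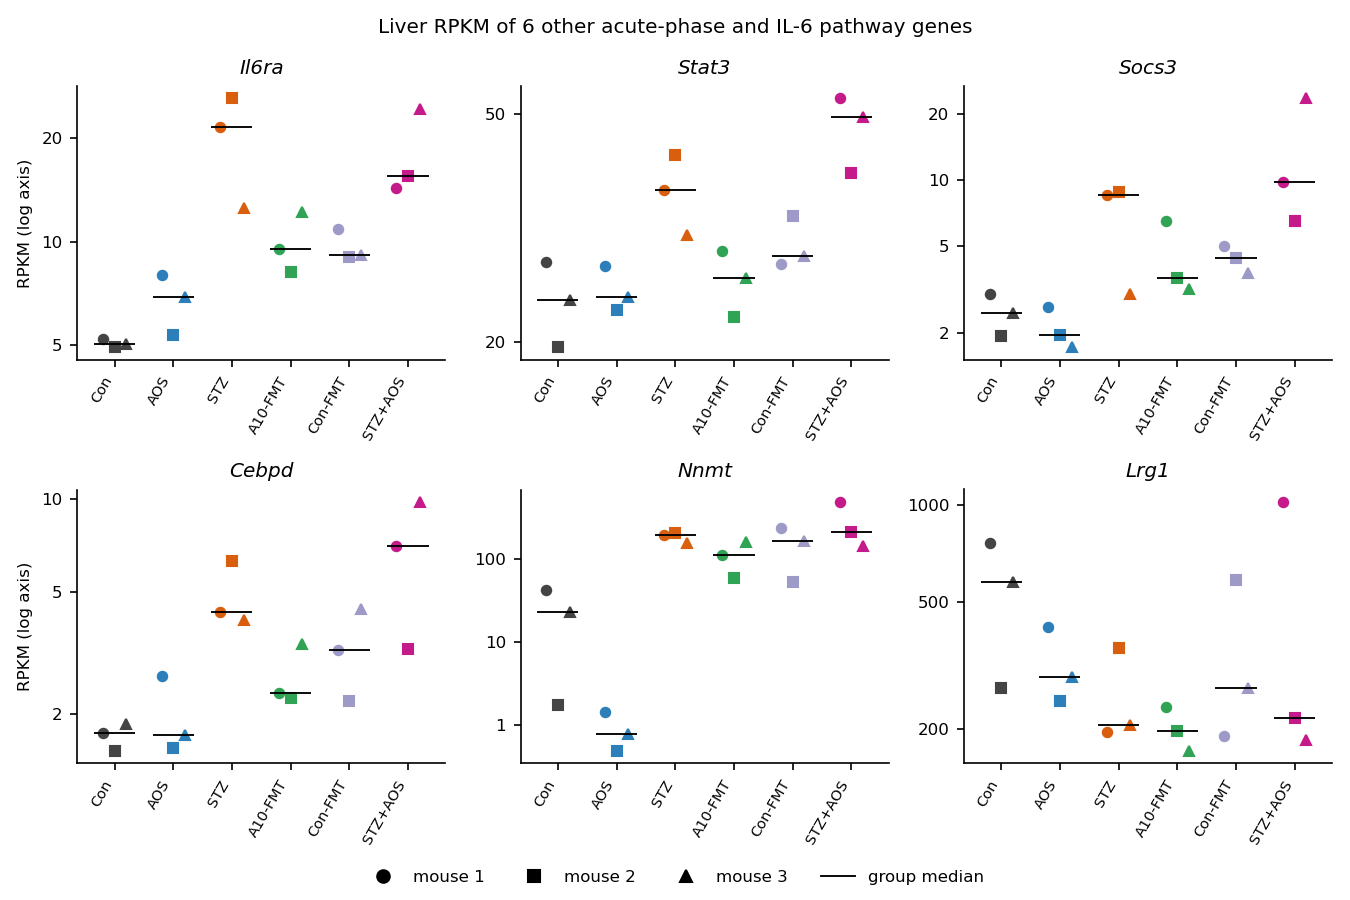
RPKM (log axis) of the IL-6 receptor chain Il6ra, Stat3, Socs3, Cebpd, Nnmt and Lrg1 in each of 18 livers by group, with group medians as lines. Il6ra and Nnmt are higher in all 12 mice with streptozotocin than in all 6 without, while Lrg1 has its highest values in STZ+AOS mouse 1 (1022 RPKM) and Con mouse 1 (762).

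By likeness of pattern over 18 libraries (Pearson's r on the log2 scale, genes outside the members), Lrg1, leucine-rich alpha-2-glycoprotein, was the gene most like Saa1 (r = 0.916), Orm1 (0.95) and Hp (0.919). Leaving out the 2 mice farthest from each member's median gave 0.900, 0.895 and 0.834. Saa1 was followed by Nfkbie (0.882, 0.785 without the 2 farthest mice) and Slc41a2 (0.877, 0.834 without them). Orm1 was followed by Cpb2 (0.927), a carboxypeptidase that slows clot lysis, and Fas (0.91), and Hp by the fibrinogen chains Fga (0.897) and Fgb (0.891). Lcn2 was most like Hpx, haemopexin (0.894, 0.786 without its 2 farthest mice), then Lbp, which binds bacterial lipopolysaccharide (0.844), and Gm7694 (0.833). On ranks (Spearman's rho) Hpx, at 0.647, came below Lbp at 0.808 and Gm7694 at 0.793. The same few high mice enter all of these values.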

How the data were processed

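Liver RNA of 18 mice was analysed. Per the methods of the study, the authors selected mRNA with oligo(dT), sequenced it on a HiSeq instrument and mapped reads to reference genes with SOAPaligner, and the submitters' processing notes name Bowtie 0.12.2 and mm10. The deposited values are RPKM, for which the authors divided read numbers by transcript length and library depth. No counts were used, and the authors' test on reads was not repeated. The test was limma 3.58.1 (R 4.3.3, eBayes with trend) on log2(RPKM + 1) of genes that reached 1 RPKM in 3 libraries or more, with group means fitted on the 4 groups without AOS treatment (12 libraries) or on all 6 groups (18 libraries). Adjusted p-values are Benjamini-Hochberg values over all tested genes of a comparison. Mice of a group are the replicates, and numbers in the labels were not taken to pair them. Exact permutation tests are two-sided. Rescaling divided each library by a factor, the median over genes of its ratio to the geometric mean of all fitted libraries. Sequences, positions and windows came from RefSeq and GENCODE M21, read with Python 3.11.15, and transcripts were aligned with Biopython 1.88. On simulated data for STZ against Con, with a log2 difference of 2 given to 200 of 10482 tested genes, 189 were recovered (94.5%) with 11 false calls. The changed genes were drawn from those with a mean log2(RPKM + 1) over 3, and noise was independent between genes. The share recovered checks the test on such genes and does not hold for the members, whose SE reached 1.23 in this comparison. The depth of a library can only be estimated from RPKM, so no counting intervals are given.

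The members, the lists and the comparisons were chosen with earlier results of these data known. Named genes are all members, at most 4 called genes with the smallest adjusted p per list and comparison, the genes Il6ra, Il6st, Stat3, Socs3, Cebpb, Cebpd, Nr3c1 and Il1r1 whatever their values, and the 3 genes most like Saa1, Orm1, Lcn2 and Hp. Il6, Marco and Lrg1 in the figure were added after their values were seen. Alternatives were rescaling, a pseudocount of 0.1, no filter, a replicate block, all 18 libraries in place of 12 and leaving out each mouse, and those for the lists were added after the data had been seen.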

Additional observations from a re-analysis of the deposited data

Results flagged for a closer look

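Orm2 was flagged by a rule on direction and not on size. The rule asked that all 3 mice lie on 1 side of the comparison group's mean in 1 setting and on the opposite side in the other. On the log2(RPKM + 1) scale all 3 STZ mice were below the Con mean, by -2.56, -0.10 and -2.48, and all 3 STZ+AOS mice were above the AOS mean, by 6.91, 3.13 and 1.00. The difference between the 2 effects was 5.39 ± 1.75 in limma (adjusted p = 0.856 over 10822 genes) and so did not pass. This difference was larger for Saa2, at 7.43, and for Saa1, at 5.60, which the rule did not flag. STZ mouse 2 was close to the Con mean, and 1 of the 3 Con mice, mouse 2, was itself at 39.8 RPKM.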

How the results depend on the processing

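The number of members called lower in comparisons with Con kept its direction under every alternative run, and its size did not. Leaving out 1 mouse gave 3 to 10 for STZ against Con, 2 to 10 for A10-FMT against Con, 1 to 9 for Con-FMT against Con, 0 to 1 for AOS against Con, 0 to 1 for Con-FMT against STZ and 0 to 2 for STZ+AOS against AOS. Without the filter on low values the counts were 3 for A10-FMT against Con, 2 for Con-FMT against Con and 0 for STZ+AOS against AOS, and rescaling also gave 0 for the last. Con-FMT against Con had 3 in the fit of all 18 libraries and 3 with a replicate block. The numbers of the mice were not taken as pairs. Same-numbered mice had r from -0.249 to 0.472, over 0.1 in 15 of 45 pairs, and 9 of 18 mice were most like their own number. Whether mice of the same number shared a batch was not tested. The replicate block moved no other count by over 1.5 times. A pseudocount of 0.1 moved none of the 10 counts by over 1.5 times, and 1 member change that was not called in the main fit was called with it. In STZ+AOS against AOS the direction turned for Orm1 after rescaling (-0.016) and for 6 members when a mouse was left out, with ranges from -0.66 to 2.66 for Saa1, -0.74 to 0.94 for Orm1, -0.34 to 0.83 for Hp, -0.50 to 0.50 for Saa3, -0.27 to 0.12 for Crp and -1.45 to 0.15 for Apcs. Values that turned were Saa3 at 0.06 without AOS mouse 1 and Crp at 0.07 without STZ+AOS mouse 2. In A10-FMT against Con-FMT, Saa4 ranged from -0.51 to 0.11 when a mouse was left out, and turned without Con-FMT mouse 2. The other member changes named with values for a comparison kept their sign under the alternatives run, and members not named there were not followed. The cause of the moves was not tested.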
